A study of Mus musculus with 9 samples.

Results

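The mitochondrial genome of the mouse holds 13 protein-coding genes, all for subunits of the respiratory chain or of the ATP synthase. Of these, 10 genes are described here: mt-Nd1, mt-Nd2, mt-Nd4, mt-Nd5 and mt-Nd6 for complex I, mt-Cytb for complex III, mt-Co1, mt-Co2 and mt-Co3 for complex IV, and mt-Atp6 for the ATP synthase. They were chosen by gene name, as rows present in both the count table and the FPKM table, each of which held 46072 genes. FPKM divides the fragments of a gene by its transcript length and by the mapped total, so these values allow levels to be compared between genes of different length.

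RNA sequencing was performed on monocytes isolated from the spleens of female C57BL/6 mice 8 to 10 weeks old, and each of the 3 groups had 3 libraries. The Con group was given water by gavage over 6 days. Van mice received vancomycin, an antibiotic that stays largely in the gut, in 2 doses of 1 mg per day over the same 6 days. VanLip mice received the same vancomycin and then L654, a serine-glycine lipid of gut bacteria that is sensed by the innate receptor TLR2, through the retro-orbital route on days 7, 9 and 11. Spleens were collected after 8 days of rest without antibiotic, for which the sample labels give a range of 6 to 8. The monocytes were purified by magnetic negative selection and were not stimulated in culture. The comparison of Van with Con addresses the effect of vancomycin, and the comparison of VanLip with Van addresses what giving the lipid back does. Neither the sample labels nor the study's passage on sequencing states a vehicle injection for the Con and Van mice. Where none was given, injection and lipid cannot be told apart.

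The respiratory chain of the inner mitochondrial membrane passes electrons to oxygen and pumps protons, and the ATP synthase uses the resulting gradient to make ATP. Its subunits come from both genomes, so that the mitochondrially encoded core has to be assembled with subunits made from nuclear genes. Mitochondrial genes are transcribed as long precursors from each strand and cut into single messages, mostly at the tRNAs that lie between them. Macrophages and monocytes shift between oxidative and glycolytic metabolism with activation, which is the setting in which these genes are usually followed in myeloid cells.

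In GENCODE release M21 on GRCm38, the genes span MT:2751-3707 (mt-Nd1), MT:3914-4951 (mt-Nd2), MT:5328-6872 (mt-Co1), MT:7013-7696 (mt-Co2), MT:7927-8607 (mt-Atp6), MT:8607-9390 (mt-Co3), MT:10167-11544 (mt-Nd4), MT:11742-13565 (mt-Nd5), MT:13552-14070 (mt-Nd6) and MT:14145-15288 (mt-Cytb). Each is a single exon without introns. The gene mt-Nd6 alone lies on the minus strand, and its message has 28.1% G and 6.0% C, whereas mt-Nd5 has 10.0% G and 27.1% C. Among the other 9 members G ranged from 8.0% in mt-Nd2 to 16.1% in mt-Co1.

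The last 30 bases of each gene, from the GENCODE M21 transcripts, are shown because the genes lie so close together that several lack a written stop codon. Capitals mark the stop codon, or the lone base that stands in its place, which is completed to a stop codon when the message is polyadenylated.
mt-Nd1: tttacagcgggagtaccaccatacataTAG
mt-Nd2: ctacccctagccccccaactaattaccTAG
mt-Co1: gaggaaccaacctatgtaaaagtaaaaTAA
mt-Co2: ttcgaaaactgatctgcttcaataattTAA
mt-Atp6: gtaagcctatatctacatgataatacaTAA
mt-Co3: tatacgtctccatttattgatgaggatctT
mt-Nd4: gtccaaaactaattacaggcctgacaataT
mt-Nd5: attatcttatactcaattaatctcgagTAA
mt-Nd6: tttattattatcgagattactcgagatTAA
mt-Cytb: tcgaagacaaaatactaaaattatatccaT
Thus mt-Co3, mt-Nd4 and mt-Cytb end on 1 base beyond their last whole codon, and the other 7 members carry a full stop codon.

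Neighbouring genes also shared bases, so that some reads belong to more than one of them. The gene mt-Atp8 overlaps the start of mt-Atp6 by 43 bases (MT:7927-7969), and mt-Atp6 overlaps mt-Co3 by 1 base. The gene mt-Nd4l overlaps the start of mt-Nd4 by 7 bases. The genes mt-Nd5 and mt-Nd6 run toward each other on opposite strands and overlap by 14 bases (MT:13552-13565), shown here as read on the plus strand.
mt-Atp8 and mt-Atp6: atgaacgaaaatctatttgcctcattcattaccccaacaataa
mt-Nd5 and mt-Nd6: ttaatctcgagtaa
The libraries were made with a strand-marking kit, but the sources used here do not give the strand setting used when reads were assigned. Reads of mt-Nd6 and reads from the opposite strand of the same stretch therefore cannot be told apart in these values.

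Part of the mitochondrial genome has annotated copies in the nuclear genome, and 9 such copies of the members were found by sequence match at 95% identity or more over at least 200 bases. Copies of this kind matter because a read from a mitochondrial message can be credited to either place. A block on the minus strand of chromosome 1 holds Gm28439 (1:24611535-24612410), a copy of the first 876 bases of mt-Nd4, Gm28437 (1:24613189-24613971) of mt-Co3, Gm10925 (1:24613974-24614651) of mt-Atp6, Gm28661 (1:24614885-24615565) of mt-Co2 and Gm29216 (1:24615706-24616197) of the last 483 bases of mt-Co1. The first 4 of these match their gene at every aligned base, so that no read within them can be placed by its sequence. Gm29216 differs from mt-Co1 by the single substitution A1066T, with positions counted from 1 at the first base of mt-Co1. The first 80 aligned bases of that pair are shown to illustrate how little separates the copy from the gene, with the differing base in capitals.
mt-Co1: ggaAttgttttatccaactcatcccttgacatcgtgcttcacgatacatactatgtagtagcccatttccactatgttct
Gm29216: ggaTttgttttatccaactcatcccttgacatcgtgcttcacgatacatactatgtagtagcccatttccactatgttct
A second block on chromosome 2 has diverged further, with Gm13340 (2:22588103-22589647) at 97.6% identity to mt-Co1, Gm13341 (2:22587291-22587962) at 95.9% to mt-Co2 and Gm13339 (2:22590024-22590533) at 96.7% to mt-Nd2. A stretch of 80 bases of mt-Co1 and Gm13340, from position 455 to 534 of each, holds 5 differing bases.
mt-Co1: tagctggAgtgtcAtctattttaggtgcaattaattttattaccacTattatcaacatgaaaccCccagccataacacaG
Gm13340: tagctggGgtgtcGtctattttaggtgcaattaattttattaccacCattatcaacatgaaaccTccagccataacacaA
On chromosome 13, Gm4076 (13:85126550-85127514) matches part of mt-Nd5 at 95.2% identity. No annotated copy at these limits was found for mt-Nd1, mt-Nd6 or mt-Cytb, so these 3 stand as members without such a partner.

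Depth differed between the groups, and so did the read length that the counts imply. The 3 VanLip libraries summed to between 170503470 and 184720704 expected counts, and the other 6 to between 43070361 and 61383806. The most frequent low count was 1.33 outside VanLip and 2.0 within it, which under the counting tool's assumed read length of 75 bases corresponds to reads of 100 and 150 bases, while the methods give 100 bases for all. Implied read length and the VanLip group cannot be told apart in the comparisons that involve VanLip, whereas depth was also evened out by thinning, with its outcome given beside those comparisons. Monocyte markers made up 1.68% to 2.21% of the normalized counts in the 9 libraries, and all 10 markers on that list were detected.

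The members were among the most abundant transcripts of these cells. All 10 ranked among the 100 highest genes by FPKM in every library, and mt-Co1, the catalytic subunit of complex IV, ranked 2 or 3. In the Con libraries mt-Co1 averaged 4981 ± 283 FPKM (SD, n = 3), which was 2.12 times the next member, mt-Atp6, at 2355 ± 91.1 FPKM. Below these came mt-Co2 at 2125 ± 123, mt-Cytb at 1857 ± 110, mt-Nd1 at 1739 ± 63.6, mt-Co3 at 1697 ± 96.9, mt-Nd4 at 1221 ± 38.6, mt-Nd2 at 1115 ± 54.4, mt-Nd6 at 870 ± 79.1 and mt-Nd5 at 790 ± 40.1 FPKM. The 3 Con values of mt-Cytb overlapped those of mt-Nd1, those of mt-Nd1 overlapped those of mt-Co3, and those of mt-Nd6 overlapped those of mt-Nd5, so the order of these neighbours was not resolved. The span from mt-Co1 to mt-Nd5 was 6.31-fold.

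That order depends on where the shared reads were placed. When the reads credited to the nuclear copies were added to their member, mt-Atp6 stood at 4795 ± 192 FPKM, mt-Co2 to 4180 ± 236 and mt-Co3 to 3382 ± 191 in the Con libraries, and mt-Co1 to 5873 ± 324. With the copies added, mt-Co3 moved from place 6 to place 4, above mt-Cytb and mt-Nd1, and mt-Nd4 stood at 1700 ± 51.1 FPKM.

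The share of the library taken by the 10 genes was lower after vancomycin. They held 2.36%, 2.63% and 2.45% of the expected counts in the Con libraries, 1.83%, 1.94% and 2.14% in the Van libraries, and 1.99%, 2.11% and 2.202% in the VanLip libraries. Every Van and every VanLip library lay below every Con library, while Van and VanLip overlapped. The mean shares were 2.48% ± 0.137, 1.97% ± 0.159 and 2.0996% ± 0.107 (SD, n = 3 each), so that Van stood at 0.795 and VanLip at 0.847 of the Con share. In bulk libraries such as these, fewer cells of a type and less RNA per cell cannot be told apart.

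**Figure D1:**
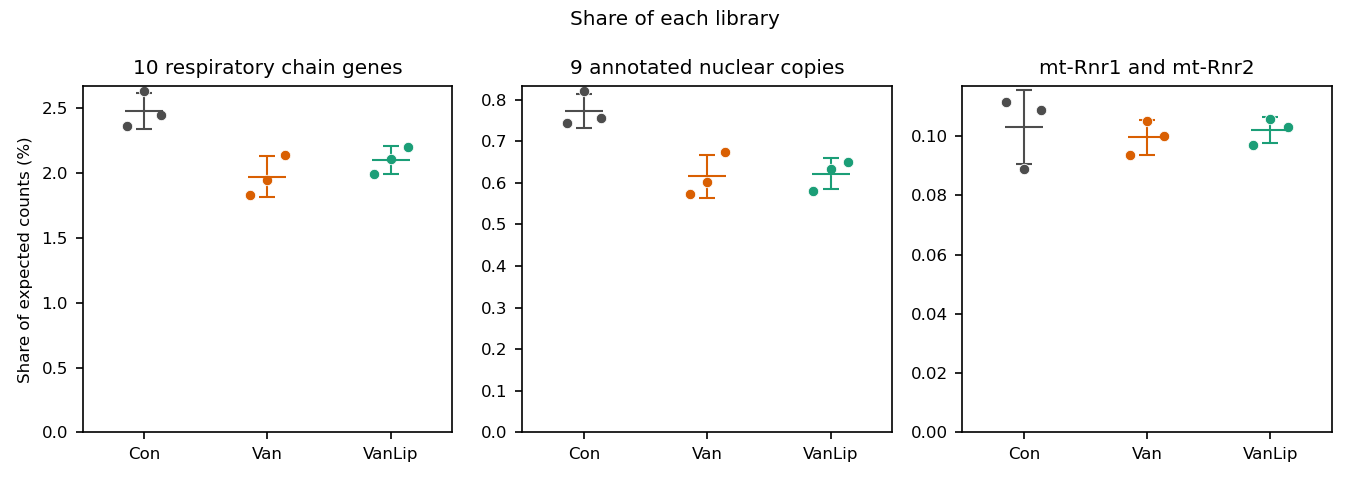
Share of the expected counts (%) held by the 10 respiratory chain genes, by the 9 annotated nuclear copies and by the 2 mitochondrial rRNAs in each library, with points for libraries, horizontal lines for group means and error bars for the SD (n = 3). In the first panel the 3 Con libraries sit between 2.36% and 2.63%, above all Van and VanLip libraries, while in the rRNA panel the groups overlap.

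The summed share of the mitochondrial rRNAs did not show the same separation. These genes held 0.112%, 0.0887% and 0.109% of the counts among Con libraries, 0.0935%, 0.105% and 0.1001% in Van, and 0.0971%, 0.106% and 0.103% in VanLip, and the groups overlapped. These libraries were selected for polyadenylated RNA, so they hold only part of the rRNA of the cell. In the DESeq2 fit, mt-Rnr1, the small rRNA, differed by -0.23 ± 0.08 (log2 fold change ± SE) between Van and Con (unadjusted p = 0.00406, adjusted p = 0.0773). Its normalized counts were 27829, 24309 and 28810 for Con and 22021, 23596 and 23601 for Van, without overlap, whereas its FPKM values overlapped. The same fit gave mt-Rnr2, the large rRNA, a change of 0.02 ± 0.11 (DESeq2 adjusted p = 0.981).

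All 10 members fell in Van relative to Con in the DESeq2 fit over all genes, where 2.06% of 18526 genes were called lower and 2.27% higher at an adjusted p of 0.05 or under. The fitted log2 fold changes on normalized counts ran from -0.30 for mt-Co1 to -0.47 for mt-Nd6, with a median of -0.35, against a median of -0.01 over all genes tested. In each of the 10 genes the 3 Van libraries lay below the 3 Con libraries in normalized counts. Over the 13503 genes that averaged 50 or more normalized counts, 11.4% separated in that direction. The count of calls differed between procedures. The edgeR quasi-likelihood test with TMM scaling called 5 of the 10 lower, with a median change of -0.35 and adjusted p-values from 0.0339 to 0.147. On quantile-normalized log2(FPKM + 1), limma called 0, with 4 at an unadjusted p under 0.05 and a median change of -0.16. Over all genes and in either direction, edgeR called 204 of 16867 and limma 92 of 26108, against 803 of 18526 with DESeq2. Without quantile normalization, a setting chosen after seeing the data, limma also called 0, with all 10 at an unadjusted p under 0.05 and a median of -0.34. These procedures differ in scaling, in input or in both as well as in the test. With TMM library sizes DESeq2 called 10 of the 10 lower, with a median of -0.35.

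Among the complex I subunits, mt-Nd1 was 1672, 1799 and 1747 FPKM in Con, 1275, 1305 and 1432 in Van, and 1310, 1522 and 1520 in VanLip. Its Van values all lay below its Con values, and this gene has no annotated nuclear copy at the limits used. The DESeq2 log2 fold change for Van against Con was -0.39 ± 0.08 (SE; adjusted p = 0.000117). The subunit mt-Nd2 was 1055, 1128 and 1162 FPKM in Con and 884, 893 and 959 in Van, a fitted change of -0.30 ± 0.09 with DESeq2 (adjusted p = 0.0369). The highest Van library was thus below the lowest Con library in both.

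The membrane subunits mt-Nd4 and mt-Nd5 belong to the proton-pumping arm of complex I. For mt-Nd4 the Con libraries measured 1177, 1243 and 1244 FPKM and the Van libraries 920, 988 and 1042, a DESeq2 log2 fold change of -0.32 ± 0.07 (adjusted p = 0.0010). For mt-Nd5 they measured 746, 825 and 799 FPKM in Con and 561, 609 and 645 in Van, a change of -0.40 ± 0.07 (DESeq2 adjusted p = 2.08e-05). The lowest adjusted p of the 10 was that of mt-Nd5.

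The gene on the other strand, mt-Nd6, was 789, 947 and 874 FPKM in Con, 593, 621 and 690 in Van, and 750, 715 and 714 in VanLip. The 3 groups did not overlap in order Con, VanLip, Van. It fell by 27.7% in Van against Con (log2 fold change -0.47 ± 0.09, DESeq2 adjusted p = 2.96e-05), the largest fitted change of the members. The 95% intervals of the 10 changes overlapped, and differences between members were not tested.

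The complex III subunit mt-Cytb, which carries electrons between the quinone sites, was 1748, 1969 and 1854 FPKM in Con and 1326, 1399 and 1548 in Van. It fell by 23.9% (log2 fold change -0.39 ± 0.08, DESeq2 adjusted p = 0.000235). The ATP synthase subunit mt-Atp6, part of the proton channel, was 2265, 2447 and 2353 FPKM in Con and 1743, 1819 and 1994 in Van, a change of -0.36 ± 0.08 (DESeq2 adjusted p = 0.000261). In both genes the highest Van library was below the lowest Con library.

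Of the complex IV core, mt-Co1 measured 4698, 5263 and 4984 FPKM in Con and 3744, 4116 and 4390 in Van, with a DESeq2 log2 fold change of -0.30 ± 0.08 (adjusted p = 0.00427). The copper-binding subunit mt-Co2 measured 1997, 2242 and 2137 FPKM in Con and 1557, 1678 and 1821 in Van (-0.35 ± 0.08, DESeq2 adjusted p = 0.0009). The subunit mt-Co3 measured 1598, 1791 and 1703 FPKM in Con and 1259, 1367 and 1490 in Van (-0.32 ± 0.09, DESeq2 adjusted p = 0.0101). All 3 core subunits fell, and in each the groups were separate.

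**Figure D2:**
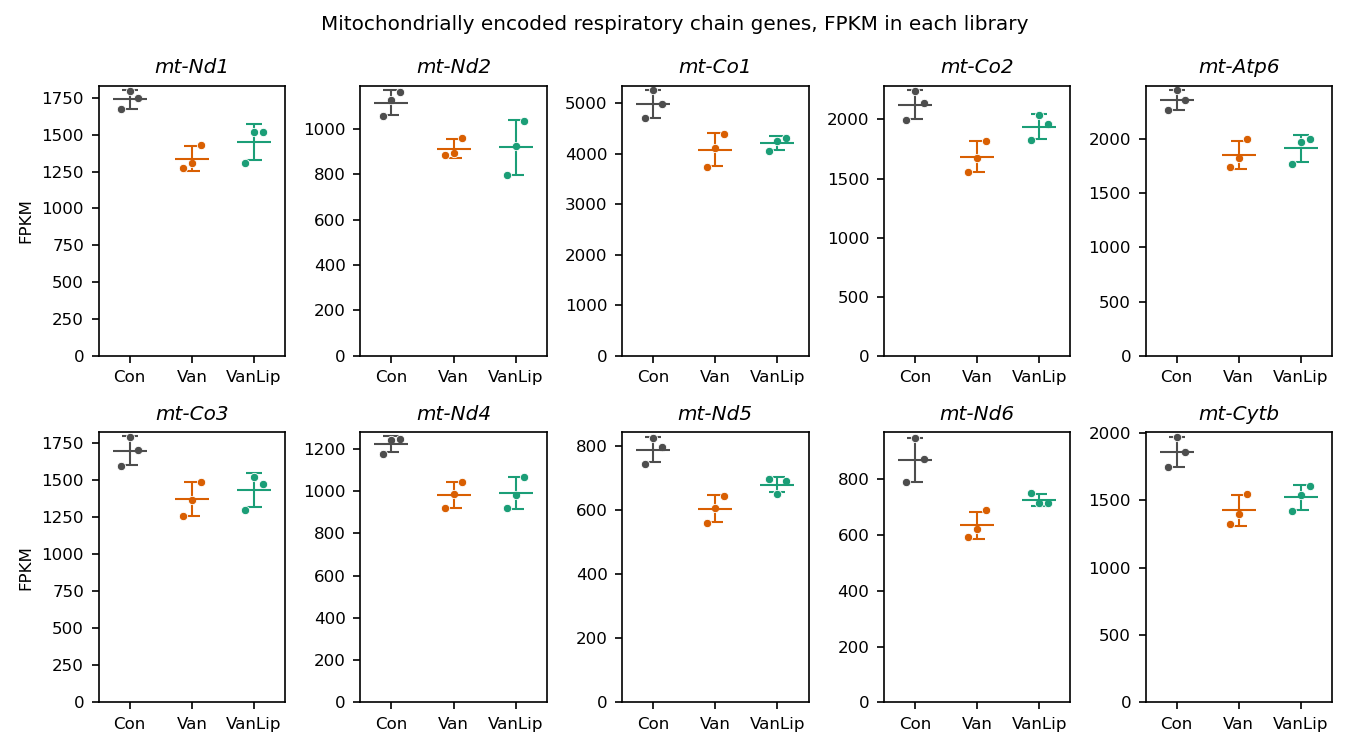
FPKM of each of the 10 genes in each library (vertical axis, starting at 0), by group, with points for libraries, horizontal lines for group means and error bars for the SD (n = 3). In all 10 panels the 3 Van libraries lie below the 3 Con libraries, and in mt-Co2 the VanLip libraries lie between 1826 and 2036 FPKM and overlap Con.

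Markers of other cells also differed between these groups. The summed normalized count of 8 erythroid markers was 6729 to 13595 in Con, 22642 to 49606 in Van and 18520 to 74379 in VanLip, and 5 of the 8 rose in Van and 7 of the 8 in VanLip against Con with DESeq2. These markers held 0.0124% ± 0.0044 of all counts among Con libraries, 0.0438% ± 0.0175 in Van and 0.0702% ± 0.0405 in VanLip. The summed count of 8 B cell markers was 52176 to 59095 in Con, 38119 to 42326 in Van and 38663 to 48367 in VanLip, and 2 of them, Ighm and Ighd, fell in Van. Within the monocyte list, Ccr2, the receptor that lets monocytes leave the bone marrow, fell in Van against Con (-0.83 ± 0.18, DESeq2 adjusted p = 0.00048) and was the only one of its 10 genes called. Against Van, where 4.58% of all genes were called higher, Ccr2 (1.04 ± 0.18), Cx3cr1 (0.43 ± 0.11) and Ly6c2 (0.39 ± 0.13) rose in VanLip (DESeq2 adjusted p = 7.38e-07, 0.00264 and 0.0262). The other monocyte markers were not called there. Of these, Cd14 (-0.46 ± 0.27), Adgre1 (-0.12 ± 0.09) and Csf1r (-0.10 ± 0.08) were below 0, and Itgam, Fcgr1, Lyz2 and Csf2ra above it. In Van against Con, 3 of 7 dendritic cell markers and 1 of 9 neutrophil markers fell and 1 of 8 red pulp macrophage markers rose, beside 2.06% of all genes called lower and 2.27% higher. In VanLip against Con, where 6.67% of all genes were called, 1 B cell marker (Ighm), 2 dendritic cell markers and 1 neutrophil marker were called. All 8 erythroid and all 8 B cell markers were detected, as were 8 of the 9 neutrophil markers. Groups overlapped in the sums of the T cell, NK cell, neutrophil, platelet, red pulp macrophage, dendritic cell and monocyte lists. The part of other cells in the change of the mitochondrial messages was not tested.

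Against Con, the VanLip libraries were lower in the same direction, with smaller fitted changes. DESeq2 called 9 of the 10 members lower in VanLip than in Con, where 3.69% of 16565 genes were called lower and 6.67% in either direction. The log2 fold changes ran from -0.15 for mt-Co2 to -0.32 for mt-Atp6, with a median of -0.28, against 0.01 over all genes tested. The 3 VanLip libraries lay below the 3 Con libraries in normalized counts for all 10 genes, and 11.3% of the same 13503 genes separated that way. The number of calls varied with the procedure and with the libraries that were fitted. The edgeR quasi-likelihood test with TMM scaling and limma on quantile-normalized FPKM each called 0, with 9 of the 10 at an unadjusted p under 0.05 with edgeR and 5 with limma. Over all genes these 2 procedures called 300 of 16867 and 237 of 26108, against 1105 of 16565 with DESeq2. With DESeq2 the count dropped to 2 when Con replicate 2 was left out, to 3 when Con replicate 3 was, and to 5 when Van replicate 2, VanLip replicate 1 or VanLip replicate 2 was. In the same order, calls over all genes were 690, 801, 884, 846 and 693, against 1105 with all libraries. The median change of the members in these fits lay between -0.24 and -0.30. Van replicate 2 enters this comparison only through the shared model. With TMM library sizes alone DESeq2 called 5. With counts turned into fragments and VanLip thinned to the mean depth of the other libraries, DESeq2 called 9, with a median of -0.28, while the calls over all genes went from 1105 to 733.

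The lowest adjusted p-values in VanLip against Con were those of mt-Nd4 and mt-Atp6. VanLip libraries measured 921, 983 and 1069 FPKM for mt-Nd4, a DESeq2 log2 fold change of -0.32 ± 0.07 (adjusted p = 0.000839). For mt-Atp6 they measured 1768, 1964 and 1996 FPKM, a change of -0.32 ± 0.08 (DESeq2 adjusted p = 0.00107). For mt-Cytb they measured 1421, 1536 and 1608 FPKM, with a change of -0.31 ± 0.08 (DESeq2 adjusted p = 0.00661). All of these VanLip values lay below the Con values given above.

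The changes of mt-Nd1 (-0.28 ± 0.08, adjusted p = 0.0103) and mt-Co1 (-0.26 ± 0.08, adjusted p = 0.0131) also passed the DESeq2 threshold against Con. For mt-Co1 the VanLip libraries measured 4055, 4256 and 4318 FPKM, close together and below every Con library. The remaining called members were mt-Nd2, mt-Nd5, mt-Nd6 and mt-Co3, with DESeq2 changes between -0.23 and -0.30 and adjusted p-values between 0.0292 and 0.0351. VanLip libraries measured 795, 925 and 1036 FPKM for mt-Nd2, which spread more widely than in either other group, with an SD of 121 FPKM against 54.4 in Con and 41.3 in Van.

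The one member not called was mt-Co2, at 1826, 2036 and 1959 FPKM in VanLip, with a log2 fold change of -0.15 ± 0.08 against Con (DESeq2 adjusted p = 0.281, 95% interval -0.30 to 0.00). Its FPKM values in VanLip overlapped those of Con, although its normalized counts did not. This gene has an identical copy on chromosome 1, and the split of reads between the pair differed in VanLip. Gm28661 held 0.935, 0.933 and 0.943 times the count of mt-Co2 in Con, 0.941, 0.935 and 0.949 times in Van, and 0.812, 0.787 and 0.851 times in VanLip. Gm28661 itself changed by -0.35 ± 0.08 in VanLip against Con (DESeq2 adjusted p = 0.00107). With the counts of mt-Co2 and both its copies, Gm28661 and Gm13341, summed, the 3 loci changed by -0.25 ± 0.08 (DESeq2 adjusted p = 0.0293), and all 10 members were then called lower. The call on mt-Co2 thus turned on whether the loci were counted apart or together.

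**Figure D3:**
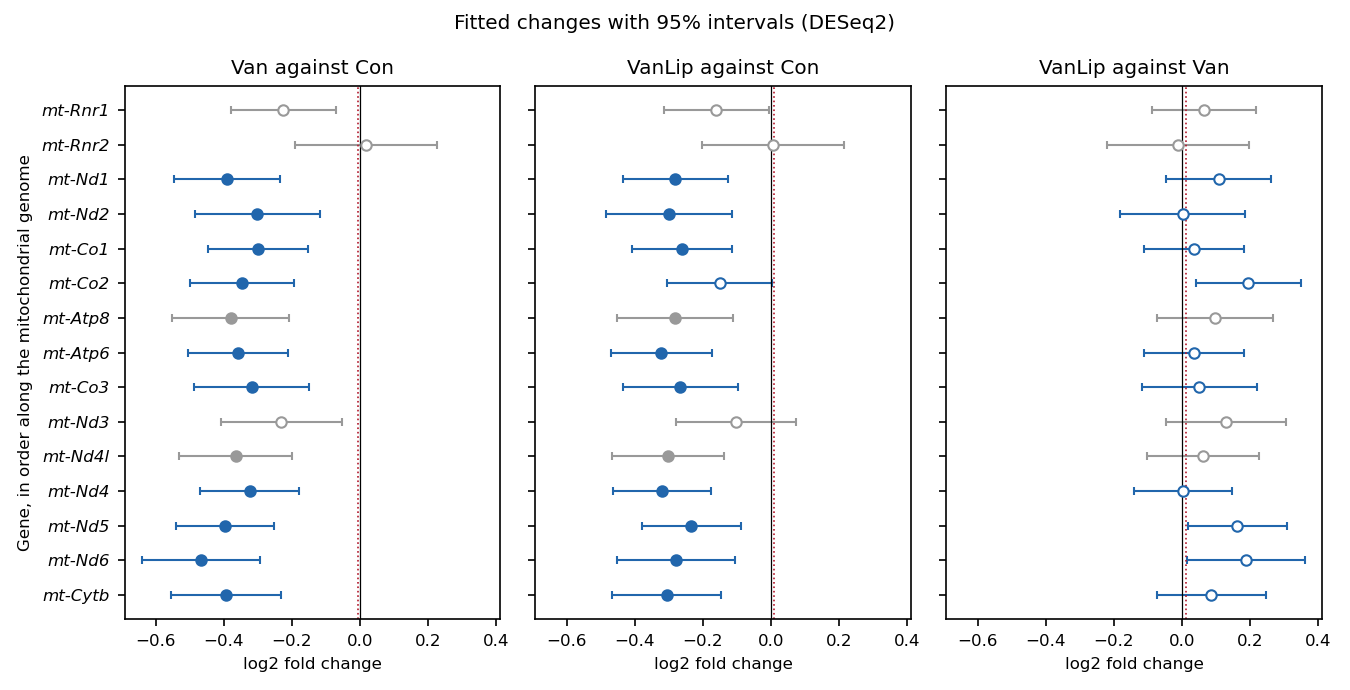
DESeq2 log2 fold change of normalized counts with 95% intervals (horizontal axis) for the 13 protein-coding genes and 2 rRNAs, in their order along the mitochondrial genome, in the 3 comparisons. Blue marks the 10 members and grey the other 5 genes, filled points have an adjusted p of 0.05 or under, and the dotted line is the median of all genes tested. All 10 members are filled and lower in Van against Con, all but mt-Co2 in VanLip against Con, and none in VanLip against Van.

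Between VanLip and Van, 0 of the 10 members were called by DESeq2, edgeR or limma, where DESeq2 called 9.85% of 18035 genes in either direction and 5.27% lower. Unadjusted p-values were under 0.05 for 3 members with edgeR and 4 with limma. Over all genes edgeR called 855 of 16867 and limma 688 of 26108. All fitted changes were at or above 0, from 0.00 for mt-Nd2 to 0.20 for mt-Co2, with a median of 0.07, against 0.01 over all genes tested. With DESeq2, 3 members had an unadjusted p under 0.05. These were mt-Co2 (0.20, 95% interval 0.04 to 0.35, adjusted p = 0.0943), mt-Nd5 (0.16, 95% interval 0.02 to 0.31, adjusted p = 0.164) and mt-Nd6 (0.19, 95% interval 0.01 to 0.36, adjusted p = 0.184). Normalized counts of mt-Co2 and mt-Nd6 were higher in every VanLip than in every Van library, whereas the other 8 members overlapped, and 14.1% of the 13503 genes separated that way. In FPKM mt-Nd5 separated as well. With VanLip thinned to the depth of the other libraries, DESeq2 called 0 of the 10, with a median of 0.07 and 3 at an unadjusted p under 0.05.

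For the remaining members the data set a bound on a difference between VanLip and Van. The 95% interval of the log2 fold change was -0.14 to 0.15 for mt-Nd4, -0.11 to 0.18 for mt-Co1, -0.11 to 0.18 for mt-Atp6, -0.12 to 0.22 for mt-Co3, -0.07 to 0.25 for mt-Cytb, -0.05 to 0.26 for mt-Nd1 and -0.18 to 0.19 for mt-Nd2. A p-value that misses the threshold does not show that the groups were alike. Leaving out Van replicate 3, the highest Van library in all 10 genes, gave 1 call, mt-Co2, at 0.26 ± 0.08 (DESeq2 adjusted p = 0.0182).

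The make-up of the mitochondrial messages was examined as each gene's share of the summed FPKM of the 10, a measure that library size does not move. The shares were close in all groups, with mt-Co1 at 26.6% ± 0.189 in Con, 27.4% ± 0.405 in Van and 26.7% ± 0.537 in VanLip. Among Van libraries mt-Co1 took a larger share than in any Con library, and mt-Cytb, mt-Nd5 and mt-Nd6 smaller ones. For mt-Nd6 the share was 4.45%, 4.82% and 4.64% in Con and 4.28%, 4.19% and 4.31% in Van. For mt-Cytb it was 9.90% ± 0.103 in Con and 9.57% ± 0.105 in Van, and for mt-Nd5 4.21% ± 0.0214 and 4.06% ± 0.0451. An exact permutation test of 3 against 3 libraries cannot go below a p of 0.1, and these differences are given as values without a test.

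In VanLip the share of mt-Co2 was 12.3%, 12.6% and 12.0%, above the Con range of 11.3% to 11.4% and the Van range of 11.2% to 11.4%. The share of mt-Atp6 was lower, at 12.1% ± 0.160, than in Con at 12.6% ± 0.174. With the reads of the copies added, mt-Co2 stood at 15.9% ± 0.114 in Con and 16.3% ± 0.205 in VanLip, still without overlap but with a smaller gap. The read length inferred from the low counts differed with the VanLip group, and its part in these shares cannot be told apart from that of the group.

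The nuclear copies carried large counts of their own. The 9 copies together held 0.745%, 0.820% and 0.755% of the expected counts among Con libraries, 0.572%, 0.603% and 0.673% in Van and 0.581%, 0.634% and 0.651% in VanLip. Gm28437 carried 0.993 ± 0.0011 times the count of mt-Co3 in Con, 0.995 ± 0.0010 times in Van and 0.991 ± 0.0014 times in VanLip, an almost even split of an identical stretch. Gm10925 carried 1.04 ± 0.0033, 1.03 ± 0.0014 and 1.03 ± 0.0306 times the count of mt-Atp6. Gm28439, a copy of part of mt-Nd4, carried 0.392 ± 0.0054, 0.386 ± 0.0029 and 0.396 ± 0.0072 times its count. The 5 copies of members in the chromosome 1 block were all called lower in Van against Con with DESeq2, where 2.06% of all genes were. Their log2 fold changes lay between -0.31 and -0.36. These copies match their genes at all or all but 1 of the aligned bases, so their changes are not separate from those of the genes.

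Of the diverged copies, the 3 on chromosome 2 were called lower in VanLip against Con, where 3.69% of all genes were. The one on chromosome 13 was not called. The ratios of Gm13340 and Gm13341 to their genes were lower in every VanLip library than in every Con and Van library, and that of Gm13339 was lower than in Con but overlapped Van. These ratios were not tested. In normalized counts, Gm13340 measured 9953, 9876 and 6893 for Con, 6105, 6673 and 7941 for Van, and 3413, 4956 and 3195 for VanLip. It fell by 1.21 ± 0.18 on the log2 scale in VanLip against Con (DESeq2 adjusted p = 9.87e-09) and by 0.84 ± 0.18 against Van (DESeq2 adjusted p = 0.000179). The ratio of Gm13340 to mt-Co1 was 0.0121 ± 0.0024 in Con, 0.0115 ± 0.0007 in Van and 0.0063 ± 0.0016 in VanLip. Of the 1446 stretches of 100 bases in the alignment of the pair, 5.53% held no difference, whereas of the 1396 stretches of 150 bases 0% held none. Gm13341 and Gm13339 also fell in VanLip against Con, by 0.76 ± 0.15 and 0.61 ± 0.15 (DESeq2 adjusted p = 5.03e-05 and 0.0023), and neither was called in Van against Con. Gm4076, with mean normalized counts of 47.3 (Con), 40.3 (Van) and 74.6 (VanLip), differed by 0.65 ± 0.47 in VanLip against Con and by 0.90 ± 0.48 against Van (DESeq2 adjusted p = 0.5 and 0.262). The part of read length in these differences was not tested.

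**Figure D4:**
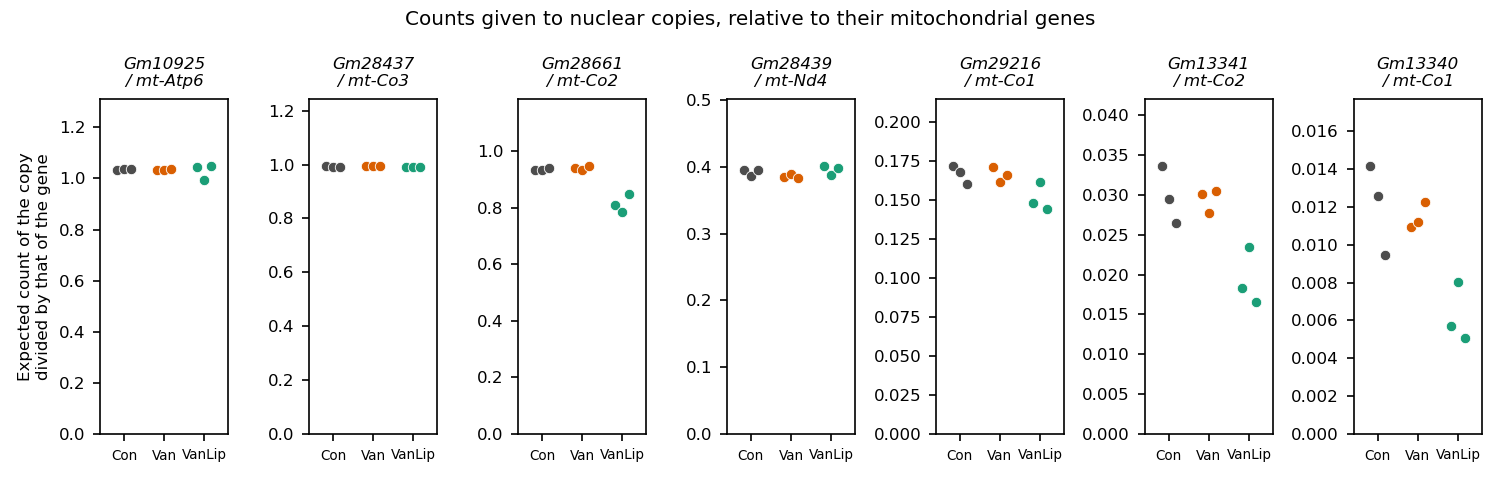
Expected count of each nuclear copy divided by that of its mitochondrial gene in each library (vertical axis, starting at 0 and scaled for each panel), with 1 point for each library and groups along the horizontal axis. Con and Van lie together in every panel, while VanLip lies lower for Gm28661 over mt-Co2 (0.787 to 0.851) and for Gm13341 and Gm13340.

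Of the 3 protein-coding genes outside the list, 2 were called lower in both Van and VanLip against Con, beside 2.06% and 3.69% of all genes, and 1 was not called. The 2 called genes each overlap a member, so they are not independent of the members. The small ATP synthase subunit mt-Atp8, whose end overlaps the start of mt-Atp6, fell in Van (-0.38 ± 0.09, DESeq2 adjusted p = 0.00111) and in VanLip against Con (-0.28 ± 0.09, DESeq2 adjusted p = 0.0245). The complex I subunit mt-Nd4l, whose end overlaps the start of mt-Nd4, fell by 0.37 ± 0.08 and by 0.30 ± 0.08 on the log2 scale (DESeq2 adjusted p = 0.00118 and 0.00969). For mt-Nd3 the changes were -0.23 ± 0.09 and -0.10 ± 0.09, which did not pass the DESeq2 threshold (adjusted p = 0.139 and 0.608). Each of mt-Nd3 and mt-Nd4l has a copy in the chromosome 1 block as well, Gm28438 and Gm10222.

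Among the 22 tRNA genes, DESeq2 called 1 lower in Van against Con, 2 lower in VanLip against Con and 1 lower in VanLip against Van, beside 2.06%, 3.69% and 5.27% of all genes. DESeq2 called 0 higher, with 0 at an unadjusted p under 0.05 in that direction. The edgeR test called 0, 1 and 1 lower in the same order and limma 0, 1 and 0. The full range of changes was -0.60 to 0.46 in Van and -0.87 to 0.28 in VanLip against Con. The Van call was mt-Te, a gene that lies directly beside mt-Nd6 on the same strand, at -0.39 ± 0.09 (DESeq2 adjusted p = 0.00279). The largest change was in mt-Ts1, which overlaps the last bases of mt-Co1 from the opposite strand, at -0.87 ± 0.14 in VanLip against Con (DESeq2 adjusted p = 3.41e-08). It measured 655, 682 and 582 FPKM in Con, 489, 486 and 572 in Van, and 301, 429 and 333 in VanLip. At 69 bases these genes are shorter than a read, and without the strand setting their reads cannot be told apart from those of the opposite strand.

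Among the nuclear partners of these genes none was called in Van against Con. Of 75 nuclear genes for subunits of the respiratory chain and ATP synthase, 74 had an adjusted p, and DESeq2 called 0 in either direction in Van against Con, where 4.33% of all genes were called. At an unadjusted p under 0.05, 2 were higher and 2 lower, and edgeR and limma also called 0. Their median log2 fold change was -0.03, with a range of -0.24 to 0.21, so that no nuclear subunit reached the value of the least changed member, mt-Co1. By complex, the median of the nuclear subunits in Van against Con was -0.04 for 36 genes of complex I, 0.02 for 8 of complex III, -0.02 for 11 of complex IV and -0.03 for 15 of the ATP synthase. The medians of the members in the same complexes were -0.39, -0.39, -0.32 and -0.36.

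In VanLip against Con, 3 of the 74 nuclear genes rose with DESeq2 and 0 fell, where 2.98% of all genes were called higher. These were Ndufs5 of complex I (0.42 ± 0.10, adjusted p = 0.00192), Atp5g3 of the ATP synthase (0.25 ± 0.07, adjusted p = 0.0124) and Cox7c of complex IV (0.26 ± 0.09, adjusted p = 0.0449). The median of the list was 0.09, with 61 genes above 0. Against Van, 12 of 74 rose and 0 fell with DESeq2, where 4.58% of all genes were called higher, with a median of 0.11 and 66 genes above 0. The lowest adjusted p-values were those of Ndufb9, Atp5k, Cox8a, Ndufs5 and Ndufv3, with DESeq2 changes of 0.34, 0.42, 0.25, 0.33 and 0.35. The edgeR test called 0 genes of the list in either comparison, with 20 and 23 at an unadjusted p under 0.05, and limma called 0 and 1. Both comparisons involve the more deeply sequenced VanLip libraries.

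**Figure D5:**
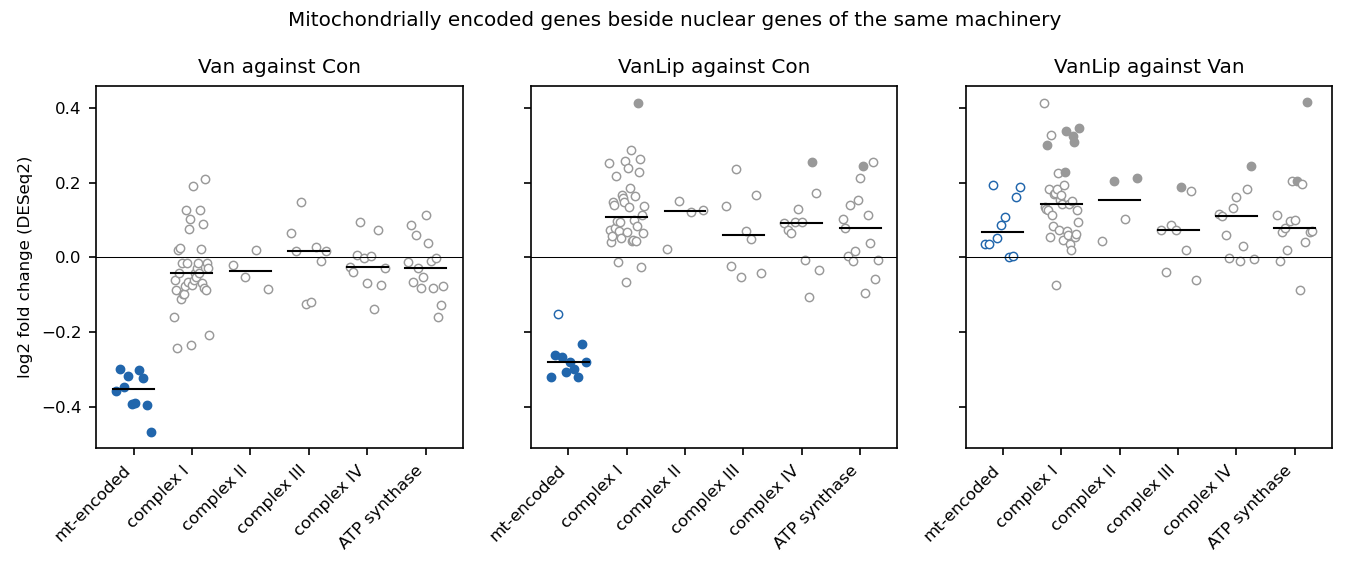
DESeq2 log2 fold change (vertical axis) of the 10 mitochondrially encoded genes (blue) and of nuclear genes of complexes I to IV and the ATP synthase (grey) in the 3 comparisons, with 1 point for each gene, filled where the adjusted p is 0.05 or under, and black lines for medians. In Van against Con the blue points lie between -0.47 and -0.30 and the grey points between -0.24 and 0.21.

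A further list held genes that maintain and express mitochondrial DNA. Of its 43 genes, 42 had an adjusted p, and DESeq2 called 2 higher and 0 lower in Van against Con, where 2.27% of all genes were called higher. The edgeR test called 1 higher, limma 0, and neither called any lower. The DESeq2 calls were Mgme1, a nuclease for mitochondrial DNA ends, at 1085 ± 126 normalized counts in Van and 702 ± 66.2 in Con (0.63 ± 0.13, adjusted p = 0.00022), and Polrmt, the mitochondrial RNA polymerase, at 1807 ± 134 and 1348 ± 177 (0.42 ± 0.13, adjusted p = 0.0362). The transcription factor Tfam changed by -0.10 ± 0.11 and the message-stabilizing Lrpprc by 0.13 ± 0.07, and neither passed the DESeq2 threshold (adjusted p = 0.788 and 0.386). In VanLip against Con, 0 of the 42 were called by DESeq2, edgeR or limma, with 4 higher and 4 lower at an unadjusted p under 0.05 with DESeq2. Against Van, Mgme1 fell by 0.51 ± 0.13 and Pprc1, a transcriptional coactivator, by 0.42 ± 0.13, while Ssbp1, which binds single-stranded mitochondrial DNA, rose by 0.32 ± 0.09 (DESeq2 adjusted p = 0.00184, 0.014 and 0.00549). In that comparison 5.27% of all genes were called lower and 4.58% higher, edgeR called 1 of the list lower and 1 higher, and limma 0 lower and 1 higher.

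A list of 20 further nuclear genes for mitochondrial proteins had a median log2 fold change of 0.01 in both Van and VanLip against Con. Mitochondrial content itself was not measured. Hspd1 and Hspe1, partner chaperonins of the matrix, rose in Van against Con by 0.43 ± 0.10 and 0.31 ± 0.10 (DESeq2 adjusted p = 0.000792 and 0.0459), and fell in VanLip against Van by 0.45 ± 0.10 and 0.31 ± 0.10 (DESeq2 adjusted p = 0.000159 and 0.0239). Phb2, an inner membrane scaffold, rose in VanLip against Con by 0.19 ± 0.06 (DESeq2 adjusted p = 0.0348). Citrate synthase, Cs, changed by -0.04 ± 0.05 in Van against Con and Tomm20, an import receptor, by -0.01 ± 0.10, neither past the threshold (DESeq2 adjusted p = 0.884 and 0.984). DESeq2 thus called 2 of the 20 higher in Van against Con, where edgeR called 1 and limma 0, beside 2.27% of all genes. In VanLip against Con it called 1 higher, where edgeR and limma called 0, beside 2.98% of all genes. In VanLip against Van it called 2 lower and Phb2 higher, where edgeR called 1 lower and 0 higher and limma 0 in either direction, beside 5.27% and 4.58% of all genes. DESeq2, edgeR and limma called 0 of the 20 lower in Van against Con, with 1 lower at an unadjusted p under 0.05 with DESeq2, 1 with edgeR and 4 with limma.

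The members varied together. Over the 9 libraries the correlations of log2 normalized counts between the 45 pairs of members ran from 0.721 to 0.989, with a median of 0.928, as a description of libraries that share groups and depth. Among 13459 other genes above the same level, the profiles most like the mean of the members were those of Fam110b (r = 0.946), Casp1 (0.940), Psmg1 (0.932), Igkv1-135 (0.924) and Wdr41 (0.921). Casp1, the inflammasome protease, averaged 8318 ± 118 normalized counts for Con, 6688 ± 445 in Van and 6782 ± 449 in VanLip. The least alike were Nr6a1 (r = -0.960), Pop7 (-0.950), Elovl5 (-0.950), Ddx51 (-0.936) and Gm26781 (-0.929). Elovl5, a fatty acid elongase, averaged 11253 ± 492 in Con, 14636 ± 1175 in Van and 13160 ± 624 in VanLip. These values describe the same 9 libraries and carry no test.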

How the data were processed

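RNA of splenic monocytes from 3 Con, 3 Van and 3 VanLip libraries was analysed, with group and replicate as the titles give them. As the submitters' processing notes and the study's methods list, reads were mapped by the authors to GRCm38 with HISAT2 2.2.1 and SAMtools 1.9, and abundance was estimated with StringTie 2.1.3. They deposited FPKM values per gene, and they deposited expected counts per gene obtained with tximport, which are not normalized and need not be whole. The annotation release and strand setting are not given in the sources used here.

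Expected counts were rounded and tested with the Wald test of DESeq2 1.42.0 in R 4.3.3, using its default size factors and 1 model of the 9 libraries in which only group was a term. The 26108 genes with a value above 0 in at least 1 library entered, and independent filtering used a target of 0.05. P-values were two-sided and adjusted by the Benjamini-Hochberg method over all genes with an adjusted p, and a gene was called at 0.05 or under. Each interval is the 95% normal interval. The p-values measure the spread between libraries. The step was tested on simulated counts. Alternatives included edgeR 4.0.16 quasi-likelihood with TMM, limma 3.58.1 on log2(FPKM + pseudocount), other size factors and filters, VanLip thinned to the mean fragment number of the other libraries, members summed with their copies, a replicate block, and leaving out each library. Same-numbered libraries of the groups showed correlations of their deviations from the group means between -0.05 and 0.09, so the numbers were not taken to pair libraries.

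Nuclear copies were found with blastn of the member transcripts against the GENCODE M21 transcripts. Named are all members, all other genes of the mitochondrial genome, the copies, up to 5 called genes of each list and direction by lowest adjusted p, and the 5 genes most and least like the members in profile. The genes Tfam, Lrpprc, Cs, Tomm20, Ighm, Ighd and those of the monocyte list were named after their values were seen. The members and lists were chosen with earlier results of these data known.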

Additional observations from a re-analysis of the deposited data

How the results depend on the processing

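With edgeR's quasi-likelihood test and TMM scaling together the number of members called was 5 in Van against Con and 0 in VanLip against Con, although 10 and 9 had an unadjusted p under 0.05. With limma on quantile-normalized FPKM it was 0 in both with a pseudocount of 1 or 0.1, and 1 and 0 after a filter at a mean FPKM of 1. The cause was not tested. Over all genes edgeR called 204 and 300, limma with a pseudocount of 1 called 92 and 237, and DESeq2 called 803 and 1105. Without quantile normalization, a setting chosen after seeing the data, limma called 0 and 0 with median changes of -0.34 and -0.26. With TMM library sizes DESeq2 called 10 members in Van against Con and 5 in VanLip against Con, and the cause was not tested. Leaving out 1 library gave 7 to 10 calls in Van against Con, 2 to 9 in VanLip against Con and 0 to 1 in VanLip against Van. The replicate block gave 10, 7 and 0 calls, and mt-Nd2 then changed sign in VanLip against Van (-0.00306), while the numbers do not pair the libraries. As a share of the FPKM sum the members differed by -0.942 percentage points in Van and -0.744 in VanLip from Con, against -0.509 and -0.378 as a share of counts, and with copies summed by -0.53 in VanLip. Leaving out 1 library the share differed by -0.594 to -0.434, by -0.437 to -0.303 and, for VanLip minus Van, by 0.0583 to 0.216 percentage points.

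Changes of sign occurred in genes that were not called. In VanLip against Con, mt-Co2 was 0.13 in all 3 quantile-normalized limma fits. In VanLip against Van those fits gave, with a pseudocount of 1, of 0.1 and after the filter, -0.04897, -0.04903 and -0.04897 for mt-Nd2, -0.05673, -0.05674 and -0.05673 for mt-Co1 and -0.04517, -0.04521 and -0.04517 for mt-Nd4. When 1 library was left out, the same comparison ran from -0.09244 to 0.08799 for mt-Nd2, from -0.01346 to 0.09772 for mt-Co1 and from -0.05279 to 0.0537 for mt-Nd4. In Van against Con, the change of mt-Co1 was 0.0 in the same 3 limma fits. Quantile normalization gives genes of the same rank the same value, and mt-Co1 ranked 2 or 3 in every library. Its value in these fits is thus set by rank and cannot show a change of level. Of the fold changes of single members under the alternatives, 498 kept direction and side of the threshold, 137 kept the direction but lost the call and 2 gained a call. A further 20 changed direction and 3 had a value of 0. Of the shares of single members, 205 moved by less than the replicate SD and 5 by more.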

Other observations

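Position along the mitochondrial genome was set beside the size of the change. Over the 10 members the Spearman correlation of the log2 fold change with the start position was -0.60 in Van against Con and -0.10 in VanLip against Con, and without mt-Nd6 it was -0.48 and -0.15 over 9 members. With the length of the gene it was 0.24 and 0.14 over all 10, and -0.05 and 0.20 without mt-Nd6, so that it changed sign in Van against Con. These are descriptions across genes that share libraries and precursors.

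The summed FPKM of the members divided by that of both rRNAs was 25.3, 34.8 and 26.6 in Con, 23.5, 22.3 and 25.6 in Van, and 24.3, 24.1 and 25.8 in VanLip. Con replicate 2, which had the highest member share, also had the lowest rRNA share of the 9 libraries.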
